A study of Mus musculus with 6 samples.

Results

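The genes described here are 41 mouse genes of DNA replication and S phase, listed by symbol for their known roles. The rule uses no measured value, but the genes were chosen with earlier results of these data known. By role they are 10 genes of origin licensing, 6 of helicase activation, 8 DNA polymerase and primase subunits, 6 of the sliding clamp and its loader, 2 of flap removal and ligation, 3 single-strand binding subunits, 4 enzymes of nucleotide synthesis, and the E2F activators E2f1 and E2f2. All 41 were found among the 37620 genes of the deposited tables, and all 41 passed the filter on low counts, which left 14125 genes to be tested.

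RNA was sequenced from BFU-E (burst-forming unit erythroid), the committed progenitors at the head of the red cell lineage, of 129/SvImJ mouse fetal liver at E14.5, a stage counted in days of embryonic life. Cells carrying lineage markers, Sca-1, CD16/32, CD41 or CD34 had been removed, and cells positive for c-kit and among the 10% lowest in CD71 were sorted. The 3 groups of 2 libraries each were untreated cells, cells given 100 nM dexamethasone (Dex), which activates the glucocorticoid receptor, and cells given 100 nM Dex together with 10 µM GW7647, which activates the nuclear receptor PPARα. The SFELE medium contained erythropoietin at 2 U/mL, IGF-1 at 40 ng/mL and SCF, the ligand of c-kit, at 100 ng/mL. The labels give 12 h of treatment, while the headers of 1 deposited table carry 36 h, and which of these holds is not settled. Whether the untreated cells were cultured as long as the others, or taken fresh, is not settled either. The study's title asks about joint PPARα and glucocorticoid receptor signalling in BFU-E, and no group had GW7647 alone. Nothing states that the replicates came from separate cultures or litters, so p-values measure only the spread between these libraries, which may be technical.

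Before a cell enters S phase, the origin recognition complex with Cdc6 and Cdt1 loads the MCM helicase onto DNA, a step called licensing. Mcm10, Cdc45 and the GINS complex then turn the loaded helicase into a moving fork, which polymerase alpha and its primase, polymerases delta and epsilon, the clamp PCNA and its loader RFC copy. E2F transcription factors switch on many of these genes as cells commit to S phase, and in erythroid progenitors E2F2 is an abundant member of that family. BFU-E divide before they mature, and glucocorticoids are known to favour their self-renewal over maturation.

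Promoter sequences are shown for 5 of the genes because a binding word of E2F factors is what many of these genes are known to share. These 5 also differ in whether they hold an exact word searched here and in what their RNA did. The sequences are from RefSeq (GRCm38.p6) and were matched to 34 of the 41 genes by symbol, giving 40 promoters. Rfc2, Gins4, Pole, Gins2, Mcm4, Gins1 and Prim2 were not matched. Each window held 300 bases, 250 before and 50 after the gene's start, and was searched on both strands for 3 E2F words (TTTCGCGC, TTTGGCGC and TTTCCCGC) and for CCAAT, the word of the factor NF-Y. Bases 180 to 16 before the start are printed from 5′ to 3′ along the gene's strand, with E2F words and CCAAT words in capitals, where overlapping E2F words run together.
Mcm5 (chr8:75109329-75109493, plus strand): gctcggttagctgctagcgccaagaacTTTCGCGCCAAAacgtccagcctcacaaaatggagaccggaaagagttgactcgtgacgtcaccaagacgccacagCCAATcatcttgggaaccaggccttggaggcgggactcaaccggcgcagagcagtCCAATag
Mcm6 (chr1:128359721-128359885, minus strand): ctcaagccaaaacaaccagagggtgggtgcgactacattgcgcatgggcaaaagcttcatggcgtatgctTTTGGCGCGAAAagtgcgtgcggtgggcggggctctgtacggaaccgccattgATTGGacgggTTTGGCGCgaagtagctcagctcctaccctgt
Pola1 (chrX:93632171-93632335, minus strand): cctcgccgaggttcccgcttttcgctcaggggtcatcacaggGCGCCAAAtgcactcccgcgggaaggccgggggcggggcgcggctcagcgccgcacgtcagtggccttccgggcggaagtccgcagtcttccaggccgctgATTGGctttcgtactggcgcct
Mcm10 (chr2:5012807-5012971, minus strand): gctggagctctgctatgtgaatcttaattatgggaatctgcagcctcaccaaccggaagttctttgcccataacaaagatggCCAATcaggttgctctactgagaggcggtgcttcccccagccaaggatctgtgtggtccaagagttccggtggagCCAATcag
Rrm2 (chr12:24708074-24708238, plus strand): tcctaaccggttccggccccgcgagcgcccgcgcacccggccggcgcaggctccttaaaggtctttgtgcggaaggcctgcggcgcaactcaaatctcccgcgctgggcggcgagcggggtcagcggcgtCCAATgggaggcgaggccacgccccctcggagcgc
Mcm5, Mcm6 and Pola1 hold E2F words in these stretches, while Mcm10 and Rrm2 hold a CCAAT word and none of the E2F words in the whole window. Any of the 3 E2F words was found in 14 of the 40 promoters (35%), against 606 of all 32851 promoters (1.84%). The 14 genes were Orc1, Cdc6, Cdt1, Mcm3, Mcm5, Mcm6, Mcm7, Gins3, Pola1, Pold1, Pole2, Rfc3, Lig1 and E2f2. CCAAT was found in 24 of the 40 promoters (60%), against 37.4% of all promoters. A match to such a short word is a description of the sequence and does not show that a factor binds there. Only these 3 exact E2F words were searched, so a promoter without them is not shown to lack a binding site of E2F factors.

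The 6 libraries held 35970286 to 54174801 counts. Chi-square per degree of freedom between the 2 libraries of a group was 8.25 for untreated cells, 20.5 for Dex and 3.75 for both drugs. By this measure the Dex pair was the least alike. The measure uses raw counts, so it grows with depth and abundant genes weigh most in it. The Dex libraries held 54174801 and 45058773 counts. The globin share of counts was 6.49% and 7.16% without drugs, 3.12% and 2.96% with Dex, and 2.82% and 2.76% with GW7647 added. The mitochondrial share was lowest in Dex replicate 1 (1.72%) and 2.46% to 2.88% elsewhere. All 12 erythroid markers were measured. After Dex 9 of them were lower and 1 higher, and their summed level, which includes the globin genes, in units of 1e+06 normalized counts was 3.40 and 3.72 without drugs, 1.53 and 1.48 with Dex and 1.43 and 1.41 with Dex plus GW7647.

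Normalized counts below are counts divided by a library size scaled by the trimmed mean of M values (TMM), on the scale of the mean library. A gene is said to have risen or fallen where its adjusted p in the quasi-likelihood test of edgeR was under 0.05, adjusted by Benjamini-Hochberg over all 14125 genes. Every mean is over 2 libraries (n = 2, SD), and log2 differences are given ± SE. In bulk libraries, fewer cells in S phase and less RNA per cell cannot be told apart.

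All 41 genes were expressed in untreated BFU-E, and together they took 0.676% and 0.682% of all counts there. Compared per kilobase of exon, the highest level was that of Pcna, the sliding clamp, with 10394 normalized counts per kb. Rrm2, the small subunit of ribonucleotide reductase, followed with 7959 per kb, and Mcm3, a subunit of the replicative helicase, with 4159.5. Pole, the catalytic subunit of polymerase epsilon, was the lowest with 332 per kb, near Gins3 with 339 and the flap endonuclease Fen1 with 421. The level of Fen1 is uncertain. Most of its exon bases (78.8%) lie under Gm10143 on the other strand, and whether reads were counted by strand is not known. Pcna thus lay at percentile 98.4 of all tested genes and Pole at percentile 57.8. The 6 subunits of the MCM ring lay closer together, from 2448 per kb for Mcm2 to 4159.5 for Mcm3. E2f2 stood at 3066 per kb and E2f1 at 771, so that E2f2 was more abundant than E2f1.

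After Dex, the genes that load the replicative helicase and those that make deoxynucleotides fell (14 of 14, and 8 of 14 under total count scaling), led by the thymidine kinase Tk1 (log2 -0.77 ± 0.05) and the loading factor Cdt1 (-0.47 ± 0.06). The 14th call, that of Rrm1, was lost in several other fits given below. The E2F activator E2f2 fell as well (log2 -0.74 ± 0.06), while clamp and clamp loader genes were not called. In all, 23 of the 41 genes were lower than in untreated cells, 2 were higher (Prim2 and Gins4), and 16 were not called. Of all genes tested, 26.0% were lower and 25.5% higher, 51.6% in all, so the share of these genes that was lower (56.1%) was above the share of all genes and the share that was higher (4.88%) was below it. Among the 7470 genes with a mean level at or above that of the lowest of the 41, 27.0% were lower and 29.6% higher. The falls were modest: the median log2 difference of the 41 was -0.16, against 0.01 for all genes, and no gene passed 2-fold. With libraries scaled by their total counts instead, 11 were lower and 5 higher (26.8% and 12.2% of the 41), beside 18.3% and 38.6% of all genes (56.9% in all). That scaling moved the log2 median of all genes up by 0.13. Of the 41, 36 lay below the median of all genes, and their own median differed from it by -0.17 on the log2 scale. A change of scaling shifts all genes by nearly the same amount. These values therefore come out alike under either scaling and are no check on it.

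**Figure D1:**
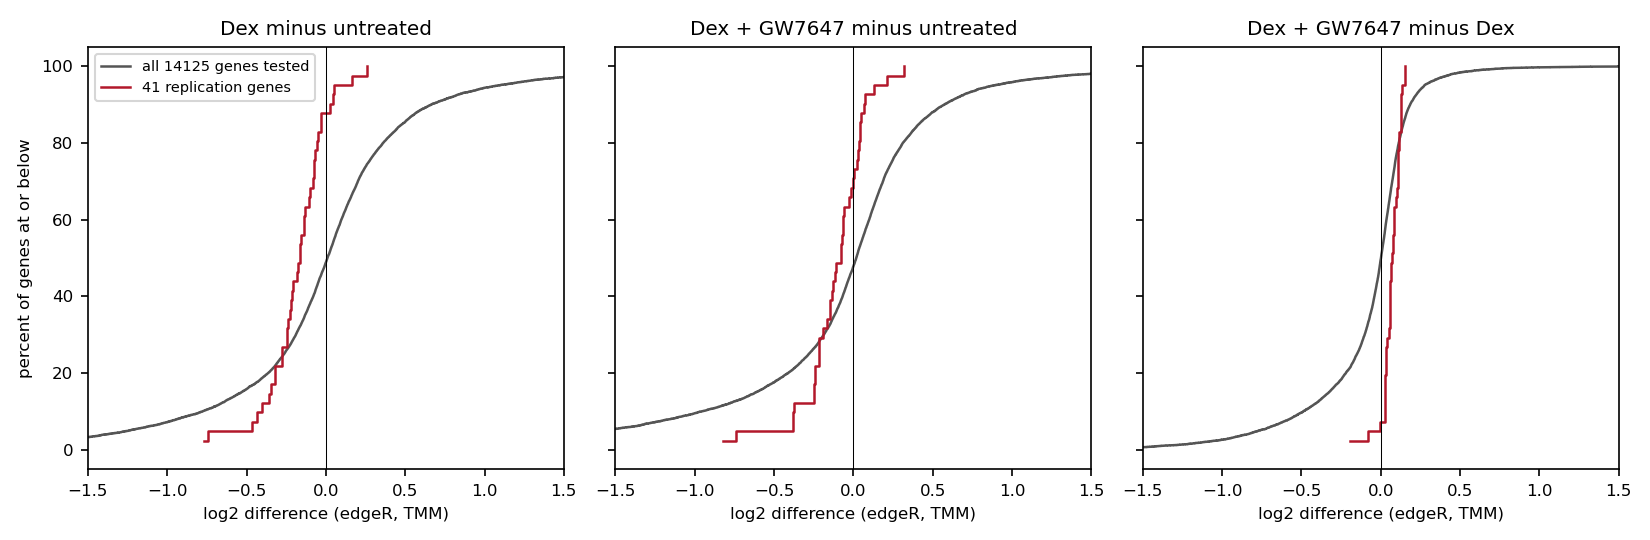
Cumulative distributions of the log2 difference (edgeR, TMM) in the 3 comparisons, for all 14125 genes tested (grey) and the 41 replication genes (red), with the percent of genes at or below each value on the vertical axis; genes beyond the drawn range are counted in the percentages but not shown. After Dex the red line runs left of the grey line over most of its course (36 of 41 genes below the median of all genes). In Dex plus GW7647 minus Dex it is steep and lies to the right (38 of 41 above the median). Total count scaling would move both lines together, so it leaves these numbers as they are.

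Origin licensing genes fell together after Dex: all 10 were lower, and under total count scaling Orc1, Cdc6, Cdt1, Mcm5 and Mcm6 were still called lower and the other 5 were not called. Cdt1, which delivers the MCM ring to origins, was at 4629.8 and 4917 normalized counts in untreated cells, 3647 and 3248 with Dex and 3642 and 3681 with Dex plus GW7647. It fell by 27.7% after Dex (log2 -0.47 ± 0.06, adjusted p = 0.000137). Both treated groups lay below both untreated libraries, and the Dex pair was spread more widely than the others.

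Cdc6, the ATPase that loads the helicase together with Cdt1, was at 5063 and 5090.1 in untreated cells, 3783 and 3892 with Dex and 3862 and 3951 with Dex plus GW7647. It fell by 24.4% after Dex (log2 -0.40 ± 0.05, adjusted p = 4.67e-05). The 4 treated libraries lay close together, well below the untreated pair. Orc1, the large subunit of the origin recognition complex, was at 1736 and 1704, then 1344 and 1414, then 1504 and 1449 in the same order of groups, and fell by 19.9% after Dex. About 10.8% of the exon bases of Orc1 lie under Gm12743 on the other strand, which stood at 15.4 to 25.7 normalized counts. The effect of this overlap on the Orc1 counts was not tested. Orc6, a smaller subunit of the same complex, was at 5031 and 5095 without drugs, 4196 and 4505 with Dex and 4927 and 4736 with Dex plus GW7647, so that the libraries with both drugs sat between the other groups.

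The 6 genes of the MCM2-7 ring fell by unequal amounts after Dex. Mcm5 fell most, from 16424 ± 427 normalized counts to 13176 ± 223 (log2 -0.32 ± 0.05, adjusted p = 0.000261). Mcm6 went from 18979.7 ± 76.9 to 16011 ± 313 (log2 -0.25), and Mcm3 from 15607 ± 653 to 13235 ± 788 (log2 -0.24). The smallest difference was in Mcm2, at 16983 and 17068 in untreated cells and 15138 and 15454 after Dex (log2 -0.15 ± 0.04, adjusted p = 0.0146). The Mcm2 groups did not overlap, yet its call was lost without either untreated library (adjusted p = 0.0511 and 0.0602). Mcm7 (log2 -0.18) and Mcm4 (log2 -0.16) lay near Mcm2, and the Mcm7 call was lost without untreated replicate 2 (adjusted p = 0.110) or Dex replicate 2 (adjusted p = 0.0512). The ratio of Mcm5 to Mcm2 counts, which needs no scaling between libraries, was 0.949 and 0.980 without drugs, 0.881 and 0.842 with Dex and 0.854 and 0.854 with Dex plus GW7647. The ratio of Mcm4 to Mcm2 was 0.733 and 0.726, then 0.723 and 0.726, then 0.707 and 0.692, so that these subunits moved nearly in step after Dex.

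Among the genes of helicase activation, Mcm10, Gins1, Gins2 and Gins3 fell after Dex, Gins4 rose, and Cdc45 was not called; under total count scaling Mcm10 was lower, Gins4 higher and the other 4 not called. Mcm10, a scaffold that helps the fork start to move, was at 5314 and 5207 normalized counts in untreated cells, 3943 and 3842 with Dex and 4072 and 4033 with Dex plus GW7647. It fell by 26% after Dex (log2 -0.43 ± 0.05, adjusted p = 2.73e-05), with the treated libraries in a narrow band. Cdc45, the partner of the MCM ring in the moving helicase, was at 3616 and 3622 without drugs, 3434 and 3464 with Dex and 3799 and 3659 with Dex plus GW7647 (log2 -0.07 ± 0.05 after Dex, adjusted p = 0.234).

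GINS, which joins Cdc45 to the helicase, is built from 1 copy each of 4 subunits, and their transcripts did not move the same way. Gins4 was at 2698 and 2697 normalized counts in untreated cells, 3055 and 2984 with Dex and 3135 and 3114 with Dex plus GW7647 (log2 0.16 ± 0.05 after Dex, adjusted p = 0.0127). Its call after Dex was lost without untreated replicate 1 (adjusted p = 0.0548) or untreated replicate 2 (adjusted p = 0.0565). Gins3 fell from 918 ± 31.1 to 758 ± 16.8 (log2 -0.28, adjusted p = 0.00499), Gins2 from 2045 ± 22 to 1724 ± 8.63 (log2 -0.25), and Gins1 from 2098 ± 21.3 to 1819 ± 44.7 (log2 -0.21). The ratio of Gins4 to Gins1 counts was 1.28 and 1.29 without drugs, 1.65 and 1.67 with Dex and 1.61 and 1.70 with Dex plus GW7647, with no overlap between untreated and treated libraries. Gins2 is uncertain: 67.3% of its exon bases lie under Gse1 on the other strand, whether reads were counted by strand is not given in the sources used here, and Gse1 itself fell (log2 -0.28 ± 0.06 after Dex).

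**Figure D2:**
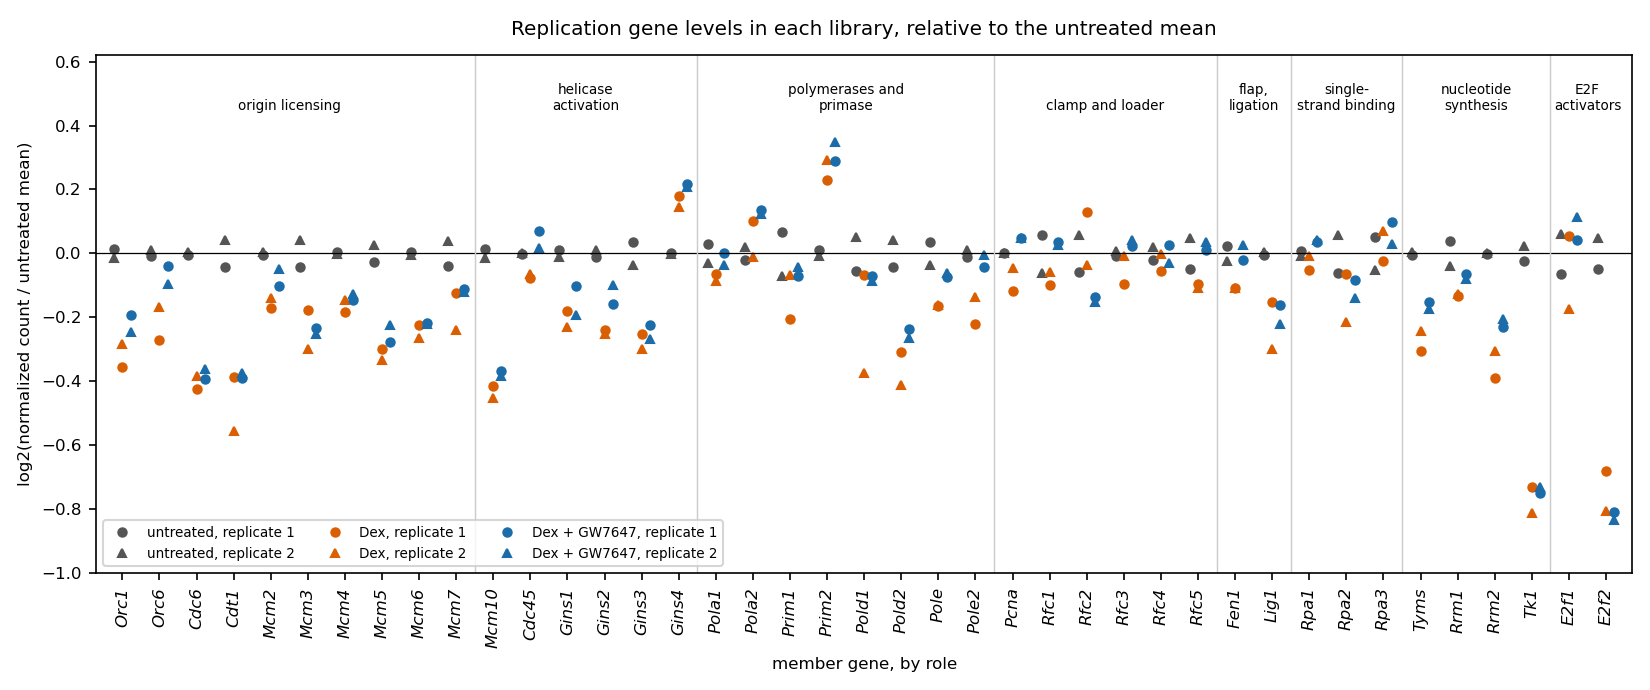
Level of each of the 41 genes in each of the 6 libraries as log2 of the normalized count (TMM) over the untreated mean, grouped by role; circles are replicate 1 and triangles replicate 2 of untreated cells (grey), Dex (orange) and Dex plus GW7647 (blue). Tk1 and E2f2 sit lowest in all 4 treated libraries, Prim2 and Gins4 sit above the line, and clamp and clamp loader genes stay near it; under total count scaling the orange and blue points move up by 0.13 and 0.12.

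Of the 8 polymerase and primase subunits, Pold2, Pole and Pole2 fell after Dex, Prim2 rose, and 4 were not called. Under total count scaling Pold2 was lower, and Prim2 and Pola2 higher. Of all genes tested, 51.6% were called with TMM and 56.9% with total counts. The called share of these subunits was therefore not above that of all genes under either scaling. Prim2, the large subunit of the primase that makes the RNA start of each new strand, was at 3097 and 3056 normalized counts in untreated cells, 3609 and 3764 with Dex and 3762 and 3921 with Dex plus GW7647. It rose 1.2-fold after Dex (log2 0.26 ± 0.05, adjusted p = 0.00134), and the groups did not overlap. Its partner Prim1, the catalytic subunit, was at 4701 and 4277 without drugs, 3893 and 4280.2 with Dex and 4275 and 4354 with Dex plus GW7647 (log2 -0.14 ± 0.06, adjusted p = 0.0958), with Dex replicate 2 above the lower untreated library. The ratio of Prim2 to Prim1 counts was 0.659 and 0.715 without drugs, 0.927 and 0.880 with Dex and 0.880 and 0.900 with Dex plus GW7647.

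Pold2, an accessory subunit of polymerase delta, fell from 3888 and 4126 in untreated cells to 3232 and 3012 after Dex (log2 -0.36 ± 0.05, adjusted p = 0.000327) and stood at 3400.1 and 3336 after both drugs. Pold1, the catalytic subunit of the same polymerase, was at 4182 and 4506 without drugs, 4148 and 3353 with Dex and 4137 and 4091 with Dex plus GW7647. Its Dex libraries stood far apart, with replicate 1 near the untreated level, and it was not called (adjusted p = 0.0663). Pole2, a subunit of polymerase epsilon, went from 1753 and 1777 to 1515 and 1605 after Dex (log2 -0.18, adjusted p = 0.0181), and its call was lost with DESeq2 (adjusted p = 0.0601), without either untreated library (adjusted p = 0.0549 and 0.0815) and without Dex replicate 1 (adjusted p = 0.0851). Pole fell from 3700.1 ± 134 to 3306 ± 6.96 (log2 -0.16), and was not called when untreated replicate 1 was left out (adjusted p = 0.118). The polymerase alpha subunits Pola1 (log2 -0.08 ± 0.05) and Pola2 (log2 0.05 ± 0.05) were not called.

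None of the 6 clamp and clamp loader genes passed the test after Dex by edgeR (0 of 6, also 0 of 6 at an unadjusted p under 0.05), while under total count scaling Rfc2 alone was called, as higher. Pcna, the ring that holds polymerases on DNA, was at 24946 and 24943 normalized counts in untreated cells, 22981 and 24175 with Dex and 25807 and 25791 with Dex plus GW7647. The Dex libraries lay below and the libraries with both drugs above the untreated pair, by small margins (log2 -0.08 ± 0.04 and 0.05 ± 0.04). Pcna was called lower after Dex only when Dex replicate 2 was left out (log2 -0.13, adjusted p = 0.0380). The loader subunits Rfc1 to Rfc5 ranged from log2 -0.10 (Rfc5) to 0.05 (Rfc2) after Dex. Exon bases of Rfc4 lie for 12.7% under Eif4a2, and those of Rfc5 for 10.7% under Wsb2, both on the other strand. Eif4a2 fell after Dex (log2 -0.52 ± 0.05) and Wsb2 rose (log2 1.24 ± 0.07), and their part in the counts of Rfc4 and Rfc5 was not tested. Counts of Pcna are uncertain to the extent that reads were split with its pseudogenes Pcna-ps1 and Pcna-ps2, as are those of Tyms with Tyms-ps.

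The single-strand binding subunits Rpa1, Rpa2 and Rpa3, which coat unwound DNA, were not called after Dex by edgeR (0 of 3, with log2 differences of -0.03, -0.14 and 0.02). At an unadjusted p under 0.05, 0 of these 3 passed, and under total count scaling Rpa3 was called higher. Lig1, the ligase that seals nicks between Okazaki fragments, fell from 10574 and 10642 to 9536 and 8624 (log2 -0.22 ± 0.06, adjusted p = 0.00713), a call that total count scaling lost (log2 -0.09). Fen1, the endonuclease that trims those fragments, was at 1036 and 1003 without drugs and 945 and 946 with Dex (adjusted p = 0.155). Fen1 counts are uncertain because 78.8% of its exon bases lie under Gm10143 on the other strand, which was itself at 74.9 to 90.9 normalized counts. That level does not show how many Fen1 reads, if any, went uncounted.

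All 4 enzymes of nucleotide synthesis were called lower after Dex, Tk1, Rrm2 and Tyms also under total count scaling, and Rrm1 with a call that several fits did not keep. Tk1, the salvage kinase that phosphorylates thymidine, had the largest fall of the 41 genes. It was at 4757 and 4921 normalized counts in untreated cells, 2914 and 2754 with Dex and 2877 and 2916 with Dex plus GW7647, and fell by 41.4% after Dex (log2 -0.77 ± 0.05, adjusted p = 8.69e-07). All 4 treated libraries lay far below the untreated pair and close to each other.

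Tyms, thymidylate synthase, which makes thymidylate anew, fell less, from 5923 and 5971 in untreated cells to 4813 and 5026 after Dex (log2 -0.27 ± 0.05, adjusted p = 0.000721). The ratio of Tk1 to Tyms counts was 0.803 and 0.824 without drugs, 0.605 and 0.548 with Dex and 0.538 and 0.553 with Dex plus GW7647. Rrm2 was at 22037 and 22070.4 without drugs, 16820.5 and 17835 with Dex and 18785 and 19132 with Dex plus GW7647 (log2 -0.35 ± 0.05 after Dex, adjusted p = 0.000152). Rrm1, the large subunit of the same reductase, went from 25978 ± 964 to 23733 ± 39.7 (log2 -0.13 ± 0.05, adjusted p = 0.0347). Its call was lost under total counts (log2 -0.00074, adjusted p = 0.990), with no filter on low counts (adjusted p = 0.0870), with only the 4 libraries compared (adjusted p = 0.0892), and without untreated replicate 1 (adjusted p = 0.209), Dex replicate 1 (adjusted p = 0.0667) or either library with both drugs (adjusted p = 0.0893 and 0.0912). Within libraries, Rrm2 over Rrm1 was 0.827 and 0.872 without drugs, 0.710 and 0.751 with Dex and 0.756 and 0.778 with Dex plus GW7647.

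The E2F activators among the 41 genes, E2f1 and E2f2, parted. E2f2 was at 14456 and 15482 normalized counts in untreated cells, 9331 and 8564 with Dex and 8548 and 8397 with Dex plus GW7647, and fell by 40.2% after Dex (log2 -0.74 ± 0.06, adjusted p = 2.77e-06). E2f1 was at 2324 and 2538 without drugs, 2527 and 2154 with Dex and 2500.2 and 2630.2 with Dex plus GW7647, and its groups overlapped (log2 -0.05 ± 0.08, adjusted p = 0.593), with a sign that changed to positive under total count scaling (log2 0.08). The ratio of E2f2 to E2f1 counts was 6.22 and 6.10 without drugs, 3.69 and 3.98 with Dex and 3.42 and 3.19 with Dex plus GW7647. Of the 14 genes with an E2F word in the promoter window, 11 were called lower after Dex, and of the 20 matched genes without one, 8 were, beside 26.0% of all genes tested. Under total count scaling these counts were 6 of 14 and 5 of 20, beside 18.3% of all genes. In the sequences printed above, Mcm5 and Mcm6 hold E2F words and fell, and Pola1 holds one and was not called. Mcm10 and Rrm2 hold none of the exact words searched and fell, which does not show that they lack a binding site of E2F factors.

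**Figure D3:**
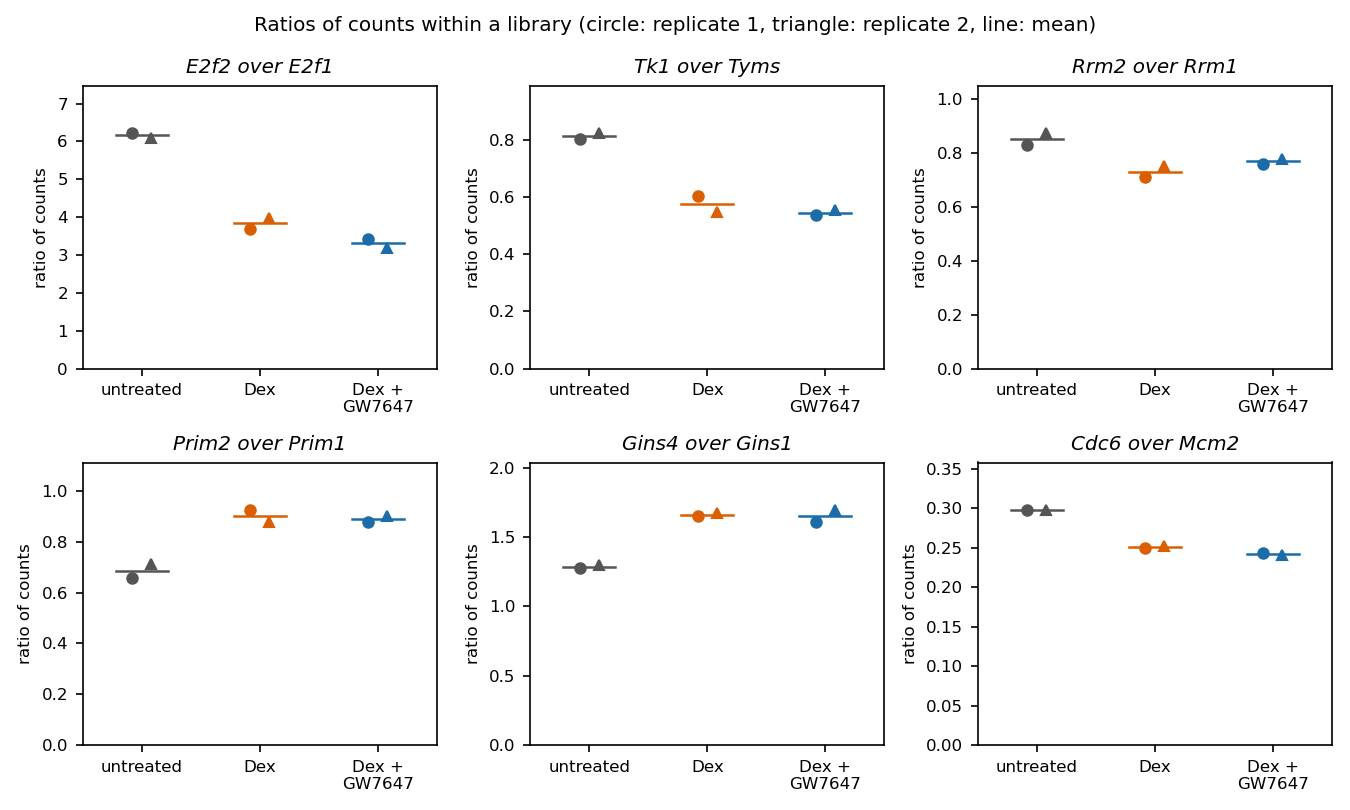
Ratios of raw counts of partner genes within each library, on linear axes from 0, for untreated cells, Dex and Dex plus GW7647; circles are replicate 1, triangles replicate 2 and lines the mean of the pair. E2f2 over E2f1, Tk1 over Tyms, Rrm2 over Rrm1 and Cdc6 over Mcm2 are lower in all 4 treated libraries than in both untreated ones. Prim2 over Prim1 and Gins4 over Gins1 are higher. The ratios do not depend on how libraries are scaled. Some other ratios overlap between untreated and treated libraries and are not drawn, among them Mcm7 over Mcm2 (0.942 and 0.989 without drugs, 0.997 and 0.901 with Dex).

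Over 13 fits of Dex against untreated (6 of them leaving out 1 library each, and 3 with other scalings or DESeq2), 11 genes were called lower in every one: Cdc6, Cdt1, E2f2, Mcm10, Mcm5, Mcm6, Orc1, Pold2, Rrm2, Tk1 and Tyms. Prim2 was called higher in every one. The other 13 genes called with TMM lost their call in at least 1 of these fits.

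With both drugs, as with Dex alone, E2f2, Tk1, Cdt1, Cdc6 and Mcm10 stood lower than in untreated cells and Prim2 and Gins4 higher, also under total count scaling. In this comparison 16 of the 41 genes were lower, 2 were higher and 23 were not called. Of all genes tested, 25.1% were lower and 24.7% higher, 49.7% in all, and among the 7470 genes at or above the level of the lowest of the 41 the shares were 22.7% and 30.8%. The share of the 41 that was lower was 39.0%. The median log2 difference of the 41 was -0.08, against 0.02 for all genes, and 30 of the 41 lay below the median of all genes. Total count scaling raised the median of all genes by 0.12. Under it the count turned to 6 lower and 10 higher (14.6% and 24.4% of the 41), beside 19.2% and 38.8% of all genes (58.1% in all). The share of the 41 that was lower was thus above that of all genes with TMM and below it with total counts. The number below the median of all genes stayed at 30 of 41, as it must where all genes shift nearly alike. This comparison and the one above share their untreated libraries, so their likeness is not independent evidence.

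By role, 7 of 10 licensing genes, 3 of 6 helicase activation genes, 3 of 4 nucleotide enzymes, Pold2, Lig1 and E2f2 were lower with both drugs. Under total count scaling 3 licensing genes, Mcm10, Tk1 and E2f2 were lower. E2f2 had the largest fall, to 8472 ± 106 from 14969 ± 726 normalized counts (log2 -0.82 ± 0.06, adjusted p = 1.57e-06), and thus fell by 43.4%. Tk1 fell by 40.1%, to 2897 ± 27.2 (log2 -0.74 ± 0.05, adjusted p = 1.33e-06). Cdt1 (log2 -0.38 ± 0.06), Cdc6 (log2 -0.38 ± 0.05) and Mcm10 (log2 -0.38 ± 0.05) fell by nearly equal amounts. Mcm5 fell from 16424 ± 427 to 13807 ± 347 (log2 -0.25 ± 0.05, adjusted p = 0.00129), and Pold2 to 3368 ± 45 (log2 -0.25), which total count scaling left uncalled (adjusted p = 0.0689).

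Prim2 and Gins4 were higher with both drugs as well. Prim2 reached 3842 ± 112 normalized counts, 24.8% above the untreated mean (log2 0.32 ± 0.05, adjusted p = 0.0004). Gins4 reached 3125 ± 14.4, 15.8% above the untreated mean (log2 0.21 ± 0.05, adjusted p = 0.0033). Rrm2 (log2 -0.22, adjusted p = 0.00314) and Tyms (log2 -0.16, adjusted p = 0.0147) were lower, but total count scaling left both uncalled (adjusted p = 0.0827 and 0.438). The Tyms call was also lost without any 1 of the 4 libraries compared, at adjusted p of 0.0510 to 0.129. Gins3 (log2 -0.24) and Lig1 (log2 -0.19) fell with TMM and lost the call under total count scaling and without several single libraries: for Gins3 untreated replicate 1 or either library with both drugs (adjusted p up to 0.0904), for Lig1 any of the 4 (adjusted p up to 0.147). The calls of Gins1 and Mcm4 with both drugs were lost without any 1 of the 4 libraries too (adjusted p up to 0.323 and 0.183), and that of Orc1 without Dex plus GW7647 replicate 2 (adjusted p = 0.0874).

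Orc6, Mcm2, Mcm7, Gins2, Pole, Pole2 and Rrm1 were called lower after Dex alone and not with both drugs. This does not show that the treatments differ for these 7 genes: in the test of both drugs against Dex alone, none of them passed. Over 14 fits of both drugs against untreated, including the calls of the authors' deposited table, Cdc6, Cdt1, E2f2, Mcm10, Mcm5 and Tk1 were lower in every one, and Gins4 and Prim2 higher. In the authors' deposited table, 15 of the 41 were lower and 2 higher at their adjusted p.

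**Figure D4:**
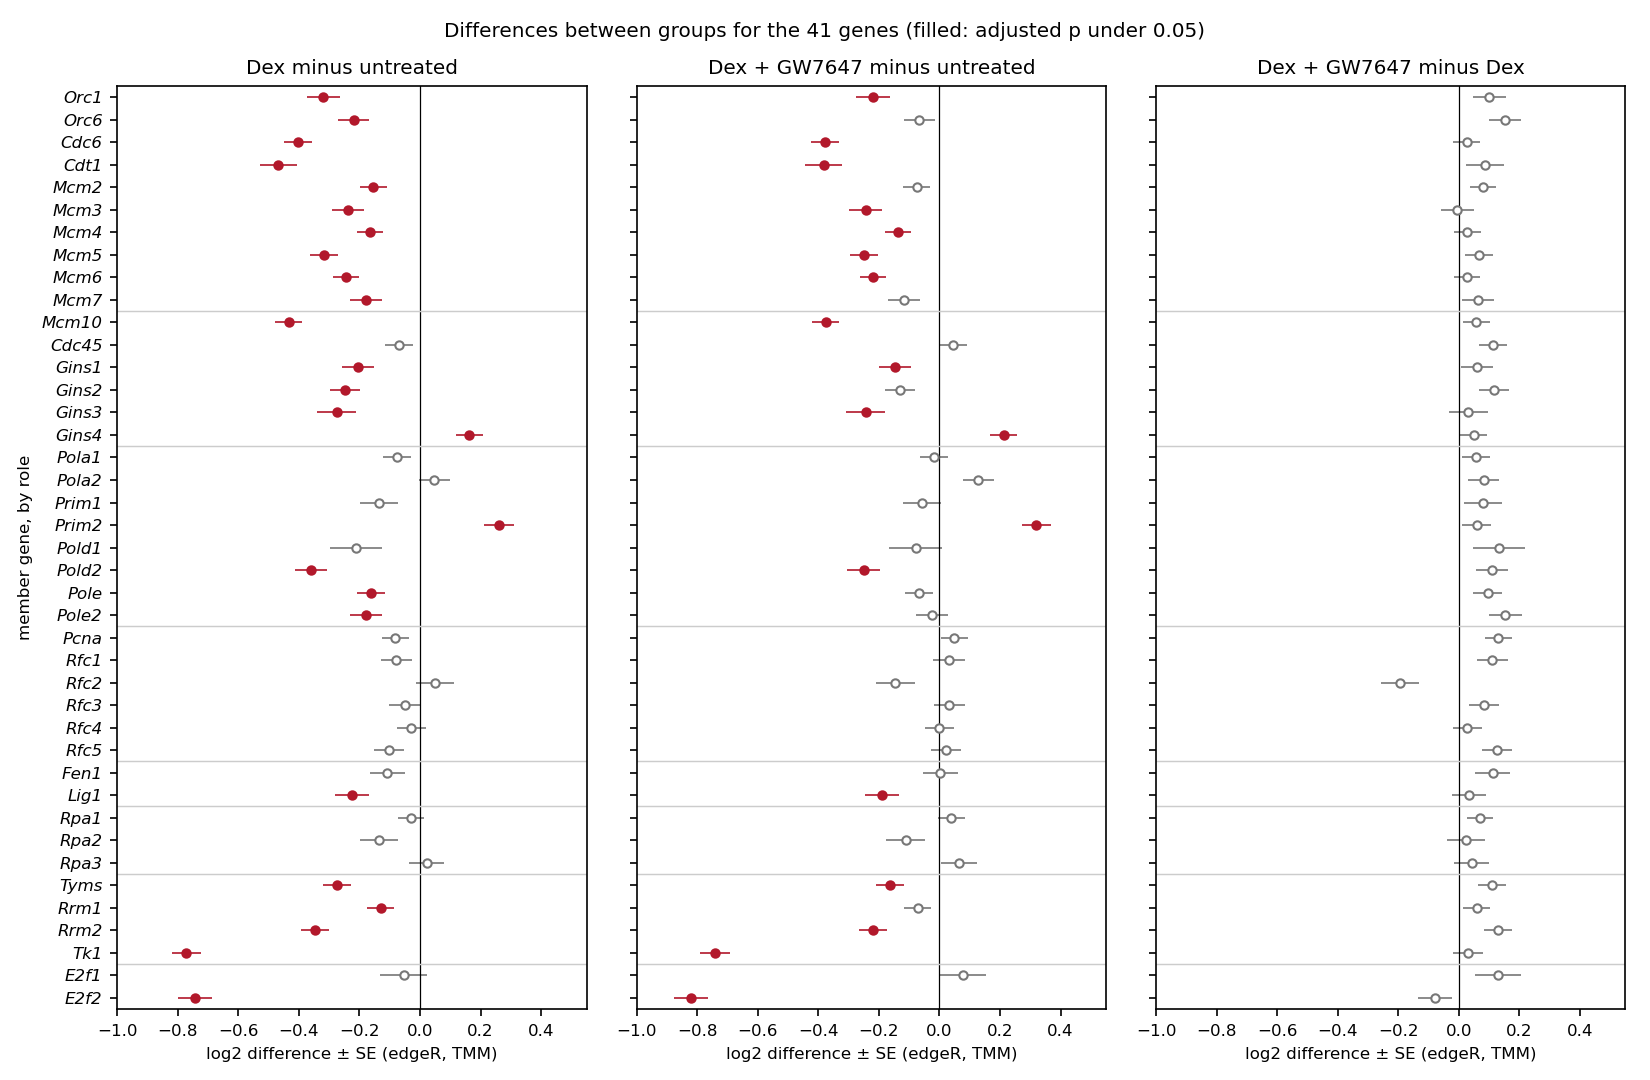
Log2 difference ± SE (edgeR, TMM) of each of the 41 genes in the 3 comparisons, ordered by role with lines between roles; filled red points have an adjusted p under 0.05. Filled points number 25 after Dex and 18 with both drugs, with Prim2 and Gins4 the 2 on the right in each (total count scaling shifts the points of these panels right by 0.13 and 0.12); none is filled in Dex plus GW7647 minus Dex, where Rfc2 lies farthest left.

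When GW7647 was added to Dex, none of the 41 genes passed the test, in a comparison that shares its libraries with both comparisons above. By edgeR 0 were called, 9 had an unadjusted p under 0.05 (8 of them higher with GW7647), and DESeq2, total count scaling and the authors' deposited table also called 0. Of all genes tested, 9.73% were called (2.15% higher and 7.58% lower), and of the 7470 at or above the level of the lowest of the 41, 9.10%. Under total count scaling the shares of all genes were 9.76%, 1.83% and 7.94%. The differences were small and mostly of 1 sign, with a range of -0.19 to 0.15 on the log2 scale and 38 of the 41 above the median of all genes. Their median was 0.07, against 0.0013 for all genes and 0.026 for the 7470 genes.

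The genes with the smallest p in this comparison lay in several roles. Rfc2, a small subunit of the clamp loader, was at 5428 and 4841 normalized counts after Dex and 4512 and 4467 with GW7647 added, from 4766 and 5164 in untreated cells (log2 -0.19 ± 0.06, adjusted p = 0.0896). It was called lower with no filter on low counts (adjusted p = 0.00899) and without Dex replicate 2 (log2 -0.26, adjusted p = 0.0170). Exon bases of Rfc2 lie for 15.1% under Lat2 on the other strand. Lat2, an adaptor of immune receptors, was at 265 and 275 in untreated cells, 131 and 144 after Dex and 85.7 and 94.5 with both drugs, and fell between the last pair of groups (log2 -0.61 ± 0.14, adjusted p = 0.0188). Its part in the Rfc2 counts was not tested.

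Pcna was at 25799 ± 10.9 with both drugs, against 23578 ± 845 after Dex alone (log2 0.13 ± 0.04, adjusted p = 0.106). Orc6 (log2 0.15 ± 0.05, adjusted p = 0.0998), Pole2 (log2 0.15 ± 0.05, adjusted p = 0.106) and Rrm2 (log2 0.13 ± 0.05, adjusted p = 0.117) had like differences. In each of these 4 genes both libraries with GW7647 lay above both Dex libraries. The 4 were named for their small p in this same comparison, so that separation adds no support. Mcm4 separated in the same way at an adjusted p of 0.747 by edgeR. Without Dex replicate 2, Orc6, Pcna, Pole2 and Rrm2 were called higher, and without Dex replicate 1, E2f1 and Pold1 were. The count of 0 thus depends on which Dex libraries are included, and the reason was not tested. Cdc45 (log2 0.11 ± 0.05), Rfc5 (log2 0.13 ± 0.05), Tyms (log2 0.11 ± 0.05), Gins2 (log2 0.12 ± 0.05), Rfc1 (log2 0.11 ± 0.05), Pold2 (log2 0.11 ± 0.05) and Pole (log2 0.09 ± 0.05) had adjusted p of 0.151 to 0.253.

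The genes that fell most with Dex showed little difference between the treated groups. Tk1 was at 2834 ± 114 after Dex and 2897 ± 27.2 with GW7647 added (log2 0.03 ± 0.05), and Cdc6 at 3838 ± 77 and 3906 ± 62.5 (log2 0.03 ± 0.05). E2f2 went the other way from most, from 8947 ± 542 to 8472 ± 106 (log2 -0.08 ± 0.06, adjusted p = 0.433). E2f1 was at 2340.3 ± 264 and 2565 ± 91.9 (log2 0.13 ± 0.08), with overlapping groups. An adjusted p above the threshold does not show that these levels were equal.

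The summed counts of the 41 genes were 6759 and 6818 CPM (counts scaled to the library's total) without drugs, 6517 and 6366 with Dex, and 6716 and 6662 with both drugs. On the TMM-scaled library size, the CPM were 7154 and 7227, then 6277 and 6196, then 6524 and 6521. On both scales the Dex libraries were the lowest and the untreated libraries the highest. No 2 groups overlapped on either scale.

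**Figure D5:**
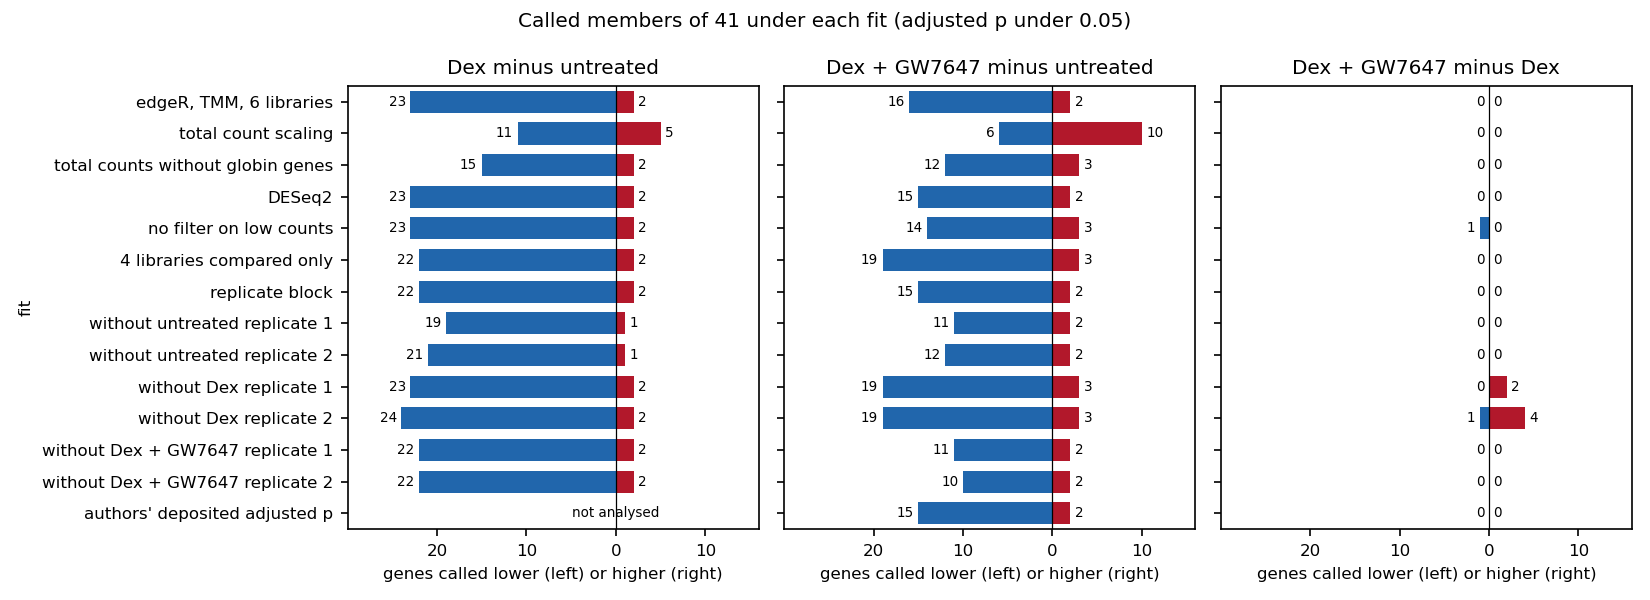
Number of the 41 genes called lower (blue, left) and higher (red, right) at an adjusted p under 0.05 under each fit, for the 3 comparisons; the authors' table was analysed for 2 of them. Total count scaling changes the split most, to 11 lower and 5 higher after Dex and to 6 lower and 10 higher with both drugs, and leaving out either Dex library is what brings calls in Dex plus GW7647 minus Dex, apart from 1 with no filter on low counts.

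A further 90 genes of the same pathway, from 5 lists that were written with earlier results of these data known, were all tested. After Dex 40 were lower and 15 higher (22 and 30 under total count scaling). With both drugs 28 were lower and 18 higher (12 and 36 under total count scaling), and between the treated groups 4 were higher and 0 lower by edgeR (3 and 2 under total count scaling). At an unadjusted p under 0.05, 22 of the 90 passed in that last comparison, 18 of them higher, and DESeq2 called 1 lower. The background shares are those given above for each comparison.

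Of 31 other origin and fork genes, 15 fell and 2 rose after Dex (5 and 8 under total count scaling). Over all genes tested, 26.0% fell and 25.5% rose (18.3% and 38.6% under total count scaling). Ticrr, which helps to fire licensed origins, fell from 2357 ± 18.9 to 1803 ± 20.2 (log2 -0.39 ± 0.05, adjusted p = 8.65e-05), and Pole3, a histone-fold subunit of polymerase epsilon, from 4779 ± 73.1 to 3506 ± 46.4 (log2 -0.45). Against the run of licensing genes, Orc5, another subunit of the origin recognition complex, rose 1.71-fold, from 4217 ± 83.7 to 7219.7 ± 303 (log2 0.78 ± 0.05, adjusted p = 1e-06), and it was higher with both drugs too (log2 0.74 ± 0.05). Pold4, the small subunit of polymerase delta, rose 1.24-fold after Dex.

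Of 22 other genes of nucleotide supply, 8 rose and 5 fell after Dex (12 and 4 under total count scaling). Over all genes tested, 25.5% rose and 26.0% fell (38.6% and 18.3% under total count scaling). Samhd1, which breaks down deoxynucleotides, rose 1.68-fold, from 5524 ± 0.756 to 9255 ± 441 (adjusted p = 1.06e-06). Rrm2b, the reductase subunit that can replace Rrm2 outside S phase, rose 1.5-fold, from 699.5 ± 4.86 to 1049 ± 56.8 (adjusted p = 5.13e-05), while Rrm2 itself fell. Dck, a salvage kinase for deoxycytidine, fell from 5183 ± 227 to 3505 ± 189.9 (log2 -0.57 ± 0.06), and Dut, which removes dUTP, from 12124 ± 114 to 9814 ± 207 (log2 -0.30 ± 0.04).

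Of 15 other E2F and pocket protein genes, 9 fell and 2 rose after Dex (6 and 3 under total count scaling). Over all genes tested, 26.0% fell and 25.5% rose (18.3% and 38.6% under total count scaling). E2f8, a repressor of the E2F family, fell from 4323 ± 163 to 2436 ± 265 (log2 -0.83 ± 0.07, adjusted p = 7.6e-06). Among the pocket proteins, which bind E2F factors, Rbl1 fell from 3535 ± 206 to 2239.6 ± 174 (log2 -0.66 ± 0.06), while Rbl2 rose 1.49-fold, from 1962 ± 132 to 2925 ± 149.8 (adjusted p = 2.78e-05), and Rb1 1.16-fold (adjusted p = 0.0236). Of 12 genes of chromatin assembly behind the fork, 7 fell and 0 rose by edgeR under TMM (8 at an unadjusted p under 0.05, 1 of them higher), and 4 fell and 3 rose under total count scaling. Uhrf1, which brings DNA methylation to new strands, fell from 10978 ± 189 to 7166 ± 145 (log2 -0.62 ± 0.04, adjusted p = 2.18e-06), and the histone chaperone Asf1a from 3569 ± 28.3 to 2692 ± 96.3 (log2 -0.41).

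Of 10 S phase checkpoint genes, 4 fell and 3 rose after Dex (3 and 4 under total count scaling). Over all genes tested, 26.0% fell and 25.5% rose (18.3% and 38.6% under total count scaling). Hus1, a subunit of the checkpoint clamp, was the only 1 of the 90 past 2-fold, falling from 1517 ± 27.8 to 693 ± 9.56 (log2 -1.13 ± 0.06, adjusted p = 1.96e-07). Rad1, another subunit of that clamp, rose 1.15-fold. Cdc25a, a phosphatase that activates S phase kinases, fell from 5537 ± 45 to 3958 ± 95 (log2 -0.48 ± 0.05). The 4 genes that rose when GW7647 was added to Dex were Pole3 (1.14-fold, adjusted p = 0.0247), Mtbp, a partner of Ticrr (1.15-fold, adjusted p = 0.04999), E2f5 (1.33-fold, adjusted p = 0.0145) and Rbl1 (1.18-fold, adjusted p = 0.0429). None of the 4 calls held without either library with both drugs (adjusted p = 0.0877 to 0.260), and without Dex replicate 1 E2f5 alone kept its call (adjusted p = 0.0483). In the authors' deposited table E2f5 and Rbl1 were called, and Pole3 and Mtbp were not (adjusted p = 0.0770 and 0.0700).

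Lists of markers for other cell types were summed per library, where a marker is called measured if its mean over the libraries reached 10 normalized counts. The summed level of 13 megakaryocyte markers, all measured, was 48577 and 51477 normalized counts without drugs, 26002 and 23654 with Dex, and 17821 and 17606 with both drugs. That of 14 granulocyte and eosinophil markers, all measured, was 15848 and 16927, then 7834 and 7519, then 4619 and 4689. Of 10 mast cell and basophil markers, 9 were measured and their sum was 7527 and 7482, then 17098 and 17249, then 10407 and 10185. The sum and most of its members moved apart: after Dex 6 of the 9 were called lower and 3 higher, with a median log2 of -0.73, and with both drugs 7 were lower and 2 higher, with a median of -2.00. Hdc (log2 2.31 after Dex) and Il1rl1 (log2 2.88) carried the rise of the sum, while Cpa3 fell (log2 -2.07). Of 10 monocyte and macrophage markers 5 were measured, with C1qa at 0 in every library, and their sum was 1873 and 1817, then 638 and 662, then 413 and 411. Of 8 endothelial and stromal markers 4 were measured, and their sum ranged from 875 to 1178 over the 6 libraries. Single markers moved more: of the 4 tested, 2 were called lower and 1 higher after Dex. With both drugs 3 were lower and 1 higher, with a median log2 of -1.22. The sum of the hepatoblast markers, 5 of 8 measured, was low in counts but differed between groups: 156 and 141, then 372 and 331, then 248 and 226, with 3 markers called higher and 0 lower after Dex by edgeR (3 at an unadjusted p under 0.05, all higher). Of 8 lymphoid markers 1 was measured, and their sum was 42.8 and 52.0, then 25.5 and 30.9, then 21.7 and 27.2. The part of these cells, and of the fall in erythroid and globin transcripts, in the levels of the replication genes was not tested.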

How the data were processed

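RNA from 6 libraries, 2 each of untreated, Dex and Dex plus GW7647 BFU-E, was analysed from 2 tables the authors deposited. Per the labels, TRIzol was used for total RNA and the TruSeq kit for libraries of polyA RNA. Per the submitters' processing notes, the tools were TopHat 1.4.1, HTSeq and DESeq, and the builds named are mm9 and NCBIM37. Whether counting used strand is not given in the sources used here. The deposited read counts per gene are whole numbers. The normalized signal that the authors deposited equals the counts over a constant for each library, as checked from the values. The authors' deposited fold ratio of group means and adjusted p-value were used only as an alternative, and the log2 column was not used. The counts of the libraries in both tables were identical.

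Symbols were joined by Ensembl identifier from the GENCODE M21 names and found for 32897 of 37620 genes (87.4%), and exon lengths and overlaps are from that annotation of GRCm38, a later build than the authors'. Genes passing filterByExpr at a minimum count of 10 (14125 genes, 99.97% of the counts) were fitted in edgeR 4.0.16 (R 4.3.3, limma 3.58.1) over all 6 libraries, with TMM scaling, group as the only term, the quasi-likelihood test and Benjamini-Hochberg adjustment over all tested genes at 0.05. The code of the fit was tried on simulated counts in which few genes changed. That trial does not test the scaling of libraries where many genes differ. Alternatives were total count scaling, DESeq2 1.42.0, no filter, the 4 libraries compared, a replicate block, the authors' adjusted p, and each library left out.

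The members, the pathway lists and the markers were chosen with earlier results of these data known. Genes named per comparison were up to 3 called members per role with the largest difference, called members against the main direction, the 12 smallest p in Dex plus GW7647 minus Dex, up to 2 called pathway genes each way per list, and always E2f1, E2f2, Pcna, Mcm2, Cdc6, Cdt1, Rrm2 and Tk1. The other members are given by their values where the account of a complex needs them.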

Additional observations from a re-analysis of the deposited data

How the results depend on the processing

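The scaling of libraries moved the split of lower and higher calls against untreated cells most; between the treated groups the filter and single libraries moved the counts more. The cause of each change was not tested. With total counts, the 41 genes gave 16 calls after Dex (11 lower, 5 higher; median log2 -0.0346) and, with both drugs, 6 lower and 10 higher (median 0.0409). The other pathway genes gave 22 lower and 30 higher after Dex, 12 lower and 36 higher with both drugs, and 2 lower between the treated groups. With total counts less those of globin genes, chosen after seeing the data, 15 of the 41 were lower after Dex (median -0.0921), the median was -0.0205 with both drugs and 0.0563 between the treated groups, where 2 pathway genes were lower. The sign reversed under total counts for E2f1 (0.0769) and Pcna (0.0482) after Dex and for Mcm2 (0.0445) with both drugs, and for E2f1 after Dex also without globin counts (0.0193). Leaving out 1 library at a time, E2f1 after Dex ranged from -0.173 to 0.0412, above 0 without untreated replicate 2 or Dex replicate 2.

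With no filter on low counts, 2085 genes in all, 1 of the 41 (lower) and 7 pathway genes (1 lower) were called between the treated groups. There DESeq2 called 1 pathway gene lower, and the authors' deposited adjusted p called 2, both higher. Leaving out each library in turn gave 20 to 26 of the 41 called after Dex (19 to 24 lower, 1 to 2 higher). With both drugs it gave 10 to 19 lower, with medians of -0.130 to -0.0765, and 26 to 49 pathway genes (9 to 21 higher, 17 to 29 lower). Between the treated groups it gave 548 to 1729 genes in all, 0 to 5 of the 41 (0 to 4 higher, 0 to 1 lower) and 0 to 9 pathway genes (0 to 9 higher, 0 to 1 lower).

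With the replicate number as a block, 24 of the 41 were called after Dex (22 lower; Rrm1 lost, adjusted p = 0.0587), 17 with both drugs (15 lower; Gins1 lost, adjusted p = 0.0561) and 0 between the treated groups, where pathway calls went from 4 to 1 (E2f5, higher). Deviations of same-numbered libraries correlated at -0.20 (Dex and untreated), -0.04 (both drugs and untreated) and 0.13 (both drugs and Dex), and nothing in the labels says that a number marks a shared source.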
